A study of Mus musculus with 63 samples.

Results

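The comparison covered 6 polyA RNA-seq libraries of the 63 samples in the series: 3 of mouse embryonic fibroblasts (mEFs) labelled Chaserr-/ Chd2m/m, called double mutant below, and 3 of WT mEFs. They were taken as all the libraries whose descriptions place them in the double mutant set, and all rows of their gene tables were used. All 6 cultures were derived from E13.5 embryos and no treatment was applied. The labels differ in the crosses they name: the mutant titles give a Chd2+/m cross and the WT titles a Chaserr+/- Chd2+/m cross, while the sample descriptions place both groups in 1 set. Nothing in the labels says which embryos shared a litter, so the p-values below measure the spread between these libraries. As a model, the m allele is a 2-bp deletion in exon 3 of Chd2, a frameshift that leaves residual protein. The m allele is therefore hypomorphic and not null. The paper reports that mutant protein in double mutant tissues did not exceed the WT level, and CHD2 protein in these mEFs is not known here. The deletion of Chaserr was made on the Chd2m/m background in CB6F1 Ola HSD mice, with a later backcross to C57BL/6 Ola HSD. For comparison, 3 Chaserr-/- and 3 WT mEF libraries of another set, and 2 Chd2m/m and 3 WT mEF libraries of one more set, were used.

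CHD2 is a chromodomain helicase that binds chromatin and remodels nucleosomes at transcribed genes. Chaserr is a long noncoding RNA transcribed from the same strand immediately upstream of Chd2, and it keeps Chd2 low in cis: on a chromosome without Chaserr, more Chd2 mRNA is made. In the double mutant, the extra mRNA therefore carries the frameshift. Primary mEFs are adherent mesenchymal cells that secrete collagen matrix and contract, and early cultures also hold some macrophages, muscle precursors and other embryonic cells.

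The sequences that define the 2 alleles are the guides used on the zygotes, shown with the PAM in capitals. Chaserr guide 2 matched the minus strand of mm9 at chr7:80702568-80702587 and Chaserr guide 3 the plus strand at chr7:80703696-80703715, so that the expected cuts lay 1142 bp apart. The Chd2 guide matched the plus strand at chr7:80664375-80664394, inside exon 3 of Chd2 (chr7:80664363-80664594), a gene on the minus strand.
Chaserr guide 2: gaggtgggaacccatctttgGGG
Chaserr guide 3: agtgaaactctgggtttgcgGGG
Chd2 exon 3 guide: agctatccgttccttcttagAGG

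The promoter of Chaserr lay wholly between the 2 expected cuts. Its 300 bases, from 250 before to 50 after the RefSeq transcription start (in capitals), are given 5′ to 3′ from the RefSeq table (GRCm38.p6) and were found by exact match on the minus strand of mm9 at chr7:80703232-80703531. The start lay 16649 bp upstream of the 5′ end of Chd2, and 72.3% of the 300 bases were G or C.
Chaserr promoter: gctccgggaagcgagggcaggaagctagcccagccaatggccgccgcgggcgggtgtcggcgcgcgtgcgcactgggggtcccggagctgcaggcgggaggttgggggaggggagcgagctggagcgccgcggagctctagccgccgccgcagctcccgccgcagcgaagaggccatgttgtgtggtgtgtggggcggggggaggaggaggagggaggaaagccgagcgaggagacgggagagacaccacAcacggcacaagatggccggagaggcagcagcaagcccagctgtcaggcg

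The WT and m alleles of Chd2 are told apart in the same exon by a pair of primers that differ only at the last base, C22T, counted from 1 at the 5′ end and shown in capitals. C22T describes the primers only, since the m allele is a deletion and not a substitution.
Chd2 WT allele primer: cacatcagctatccgttccttC
Chd2 m allele primer: cacatcagctatccgttccttT

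Library totals ran from 10202129 to 16983370 rounded expected counts, and 14076 of 24990 rows passed the low-count filter. Xist, the RNA that coats the inactive X chromosome, was at 298 TPM (length-normalised transcript level, scaled to a fixed total per library) in double mutant replicate 2 and between 0.07 and 0.15 TPM in the other 5 libraries, and the Y-linked genes Ddx3y, Eif2s3y, Kdm5d and Uty were at 0 only in that library. Sex was therefore not balanced between the groups, and the calls and the gene lists described at length are also given without double mutant replicate 2. In a principal component analysis of log2 CPM, WT replicates 1 and 2 scored -26.2 and -29.7 on the first component (31.7% of variance), whereas WT replicate 3 scored 5.81, on the side of the double mutants (8.20 to 26.4). Counts within every pair of replicates differed by more than sampling noise.

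The deleted gene was examined first. Chaserr had 652, 551 and 548 counts in the WT libraries and 0, 1 and 1 in the double mutants. Summed over the groups and scaled to library size, the WT level was 756-fold that of the double mutants (exact 95% interval 209 to 6250, counting error only). The libraries therefore carried the deletion their labels give, in all 3 mutants.

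Chd2 had the largest rise of the called genes. Its level was 37.8, 37.8 and 38.4 CPM (read counts scaled to a common library size with TMM factors) in WT and 133, 133 and 153 CPM in the double mutants, so that the groups lay far apart. The rise was 3.67-fold, or 1.88 ± 0.096 on the log2 scale (SE, n = 3 per group, adjusted p = 8.78e-06), and it kept its call without double mutant replicate 2.

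Few single genes passed the threshold: with Chd2 and Chaserr counted, 7 were called higher, 0.0497% of the rows tested, and 6 lower, 0.0426%, at an adjusted p under 0.05 (edgeR quasi-likelihood test). At an unadjusted p under 0.05, 586 rows (4.16%) lay higher and 806 (5.73%) lower, where a threshold of 0.05 alone would give 704 in all. The 3 double mutants lay wholly above the 3 WT libraries for 6.44% of rows and wholly below for 7.4%. The number of calls depended strongly on the test: DESeq2, with its default settings, called 104 rows higher (0.801% of the 12983 given an adjusted p) and 119 lower (0.917%), among them all 13 of the genes called here, and leaving out WT replicate 3 gave 77 higher and 124 lower. The names of the 13 and the direction of their changes are described first, then the wider gene lists, for which the counts at an unadjusted p and the median change are given beside those of all rows.

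Besides Chd2, the genes called higher were Ccn2, Ptgs2, Epha2, Hbegf, Dusp5 and Tnnc1. Ccn2 (listed as Ctgf in older annotation), a secreted matrix protein induced by TGF-beta and by mechanical tension, was at 309, 311 and 279 CPM in WT and 571, 629 and 648 CPM in the double mutants, a 2.06-fold rise (log2 1.04 ± 0.0952, adjusted p = 0.00209). Ptgs2, which encodes the prostaglandin synthase COX-2, stood at 144, 121 and 101 CPM against 259, 280 and 246 CPM, a rise of 2.15-fold (adjusted p = 0.0138). In both genes the lowest mutant library was well above the highest WT library, and Ccn2 was the most precisely measured of the 2.

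Epha2, a receptor tyrosine kinase for ephrin-A ligands, had the largest rise of the called genes after Chd2. Its WT levels of 14.8, 20.3 and 14.5 CPM compared with 46.9, 42.4 and 31.6 CPM in the double mutants (2.44-fold, log2 1.29 ± 0.178, adjusted p = 0.0339). Double mutant replicate 3 was the lowest of the mutants for this gene and for Hbegf, a membrane-anchored EGF receptor ligand. Hbegf was at 32.4, 31.8 and 28 CPM in WT and 72.3, 79.7 and 49.3 CPM in the double mutants (2.19-fold, adjusted p = 0.044). Dusp5, a nuclear phosphatase that inactivates ERK and is itself induced by ERK, stood between 8.31 and 8.72 CPM in WT and at 16.8, 18.3 and 14.8 CPM in the double mutants (1.96-fold, adjusted p = 0.0459). Tnnc1, the troponin C of slow and cardiac muscle, was at 20.4, 19.3 and 19.6 CPM in WT and 34.5, 39.6 and 34.5 CPM in the double mutants (1.83-fold, adjusted p = 0.0294).

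**Figure D1:**
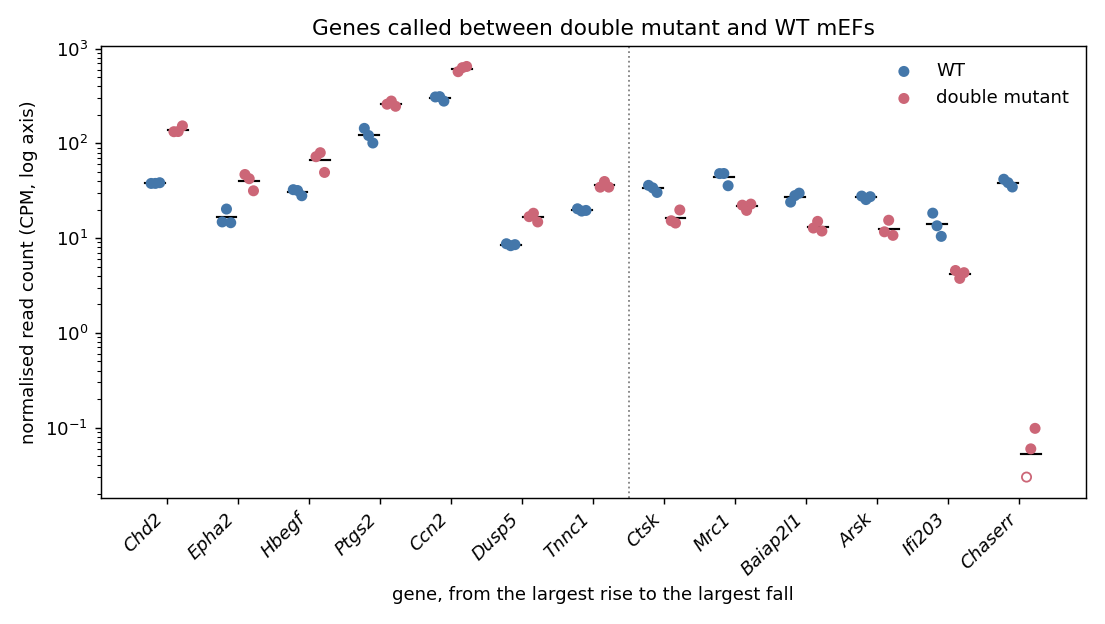
Normalised read counts (CPM, log axis) of the 13 called genes in each WT and double mutant library, with the group mean as a bar, ordered from the largest rise to the largest fall. The groups do not overlap for any of the 13, and the open circle marks a Chaserr count of 0, drawn at the foot of the axis.

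The genes called lower, besides Chaserr, included genes known from interferon-treated cells, macrophages and matrix turnover. Ifi203, a member of the interferon-inducible PYHIN family, was at 10.4 to 18.3 CPM in the 3 WT libraries and 4.55, 3.75 and 4.31 CPM in the double mutants, a 3.36-fold fall (log2 -1.75 ± 0.228, adjusted p = 0.0294), and the WT libraries themselves differed widely. Mrc1, the mannose receptor of macrophages, was at 47.9, 48.1 and 35.7 CPM against 22.3, 19.6 and 22.8 CPM (2.04-fold lower, adjusted p = 0.0339). Ctsk, a collagen-degrading cysteine protease, was at 36, 33.9 and 30.3 CPM against 15.2, 14.4 and 19.8 CPM (log2 -1.03, adjusted p = 0.0339). Ctsk and Mrc1 fell by nearly the same amount.

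The remaining falls were in Arsk, a lysosomal sulfatase, and Baiap2l1, an adaptor between membranes and the actin cytoskeleton. Arsk was at 27.8, 25.5 and 27.4 CPM in WT and 11.6, 15.4 and 10.7 CPM in the double mutants (2.12-fold lower, adjusted p = 0.0339). Baiap2l1 was at 24, 28.1 and 29.8 CPM against 12.8, 15 and 11.9 CPM (2.06-fold lower, adjusted p = 0.0339). Without double mutant replicate 2, Chd2, Chaserr, Ccn2, Ptgs2, Epha2, Arsk and Baiap2l1 kept their calls, and Ctsk, Dusp5, Hbegf, Ifi203, Mrc1 and Tnnc1 had adjusted p of 0.0861, 0.122, 0.0631, 0.0566, 0.074 and 0.0566 in that fit. Leaving out WT replicate 1 or 2, or double mutant replicate 1, left 4, 4 and 3 of the 13 calls.

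Among signalling genes, the list of ERK response genes, which holds immediate-early transcription factors and feedback inhibitors of the kinase cascade, had all 26 members tested and 2 called higher, Hbegf and Dusp5. A further 11 lay higher at an unadjusted p under 0.05, so that 13 of 26 did so, against 4.16% of all rows, and the median log2 change was 0.43 against -0.01 over all rows tested. Spry4, an inhibitor of receptor tyrosine kinase signalling, was at 24.7, 24.2 and 23.9 CPM in WT and 43.2, 35.4 and 38.4 CPM in the double mutants (adjusted p = 0.0687). Dusp6, a cytoplasmic ERK phosphatase, had a log2 change of 0.54 (adjusted p = 0.0989), Phlda1 0.61 (adjusted p = 0.0782) and the EGF family ligand Ereg 0.78 (adjusted p = 0.159). Fos and Fosb, which encode AP-1 subunits, had values below 0: Fos was at 162, 166 and 172 CPM in WT and 81.4, 117 and 71.2 CPM in the double mutants (log2 -0.89, adjusted p = 0.0717), and Fosb had a log2 change of -1.21 (adjusted p = 0.2). DESeq2 called 8 of the list higher and 1 lower. The median was 0.27 without WT replicate 3, and without double mutant replicate 2, 12 members lay higher at an unadjusted p under 0.05, none was called higher and 2 were called lower.

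The list of p53 targets, genes induced when p53 is active, had no called member in the edgeR fit of the 6 libraries, but 14 of 23 lay higher at an unadjusted p under 0.05 and none lower, with a median log2 change of 0.28. Cdkn1a, the cyclin-dependent kinase inhibitor p21, was at 221, 231 and 249 CPM in WT and 346, 336 and 370 CPM in the double mutants (log2 0.59 ± 0.092, adjusted p = 0.0573). Mdm2, the ubiquitin ligase that limits p53, had a log2 change of 0.54 (adjusted p = 0.0704) and the kinase gene Plk2 one of 0.62 (adjusted p = 0.0704). Ccng1, the most abundant member, was at 1209 ± 186 CPM in WT and 1546 ± 165 CPM in the double mutants (SD, n = 3), and its groups overlapped. The summed level of the list was 2794 to 3138 TPM in WT and 3408 to 3931 TPM in the double mutants, without overlap. DESeq2 called 7 of the 23 higher, and edgeR called 6 without WT replicate 3, 3 with no low-count filter and 2 each with a replicate block, with 17 libraries and with the GC and length correction. Without double mutant replicate 2, 11 lay higher at an unadjusted p under 0.05.

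The interferon-stimulated genes, which cells make in answer to type I interferon, showed the largest shift of any pathway list. Of 32 members, 29 passed the low-count filter. All 29 had log2 changes below 0, from -1.59 to -0.22, with a median of -0.91, and 23 of the 29 lay lower at an unadjusted p under 0.05, against 5.73% of all rows. None passed the adjusted threshold in the edgeR fit of the 6 libraries, but 11 were called lower with DESeq2, 11 without WT replicate 3, 7 with no low-count filter and with a replicate block, and 5 in the fit of 17 libraries. Stat2, a transcription factor of the interferon response, was at 44.9, 38.1 and 27 CPM in WT and 22.3, 18.3 and 17.8 CPM in the double mutants (adjusted p = 0.0989). WT replicate 1 was the highest and WT replicate 3 the closest to the double mutants. Usp18, a brake on interferon signalling, had a log2 change of -1.55 (adjusted p = 0.0912), the GTPase gene Gbp3 -1.59 (adjusted p = 0.101), and B2m, the light chain of MHC class I and the most abundant member, -0.45 (adjusted p = 0.2). Without WT replicate 1 the median of the list was -0.58 and 15 members lay lower at an unadjusted p under 0.05, and without double mutant replicate 2 the median was -0.75 with 18 such members.

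Macrophage markers lay lower in the same libraries. Of 17 markers, Mrc1 was called, 10 lay lower at an unadjusted p under 0.05, and the median log2 change was -0.41. The summed level of the 17 was 923 to 1034 TPM in WT and 857, 618 and 588 TPM in double mutants 1 to 3. Cd68 was at 43.5, 46.3 and 48.9 CPM in WT and 37.6, 25.4 and 27.6 CPM in the double mutants (adjusted p = 0.159) and the complement gene C1qa had a log2 change of -0.73 (adjusted p = 0.173), but Csf1r, the receptor for the macrophage growth factor, had one of -0.02 and Aif1 one of 0.01. Double mutant replicate 1 was close to WT in the summed markers, yet its Mrc1 level of 22.3 CPM was like that of the other 2 mutants. Without double mutant replicate 2 or WT replicate 3, 6 markers lay lower at an unadjusted p under 0.05, without double mutant replicate 3, 5 did, and without double mutant replicate 1, 14 did, with a median of -0.60. None of the 17 markers was at 0 in all 6 libraries. In these bulk samples fewer macrophages and less RNA per macrophage cannot be told apart, and their part in the interferon and Mrc1 results was not tested.

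**Figure D2:**
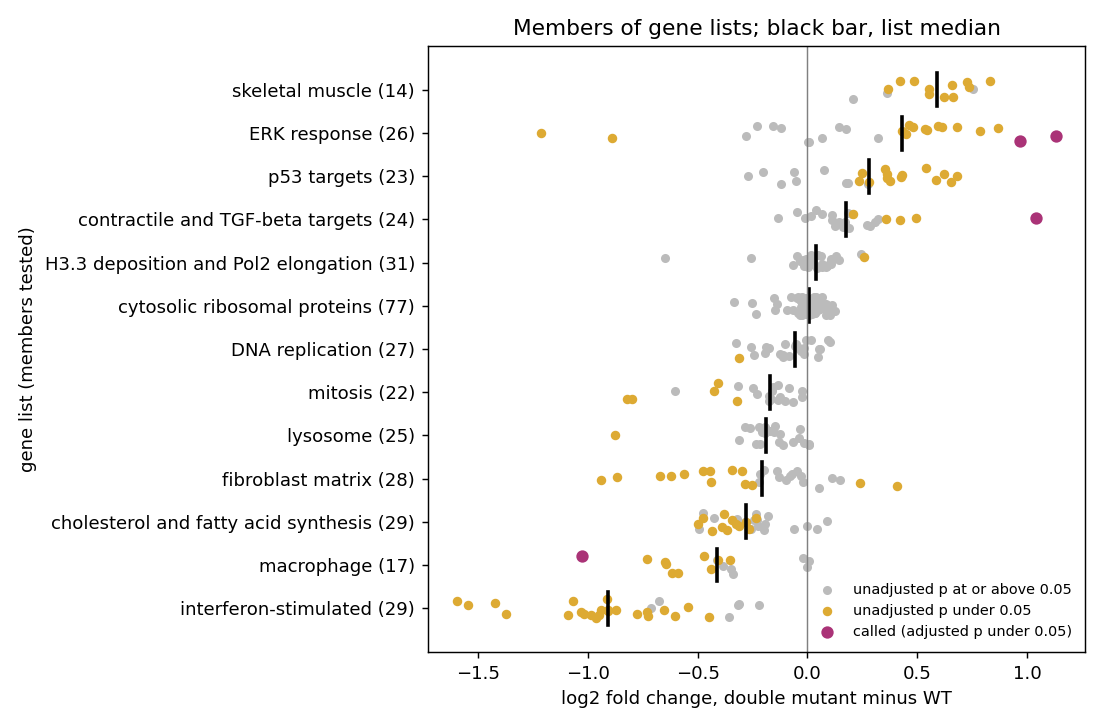
log2 fold changes (double mutant minus WT) of the tested members of 13 gene lists, with the list median as a black bar and colours for the called members, those at an unadjusted p under 0.05 and the rest. All interferon-stimulated members and all macrophage members but Aif1 (0.01) lie left of 0, and p53 target, ERK response and skeletal muscle members mostly right of it, whereas the 77 cytosolic ribosomal protein genes are centred near 0.

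Genes of muscle contraction lay higher. All 14 skeletal muscle markers had log2 changes above 0, with a median of 0.59, and 11 lay higher at an unadjusted p under 0.05. DESeq2 called 5, and without double mutant replicate 2, 10 lay higher at an unadjusted p under 0.05, with a median of 0.52. The embryonic myosin gene Myh3 was at 37.2, 42.7 and 35.4 CPM in WT and 63, 72.2 and 56.7 CPM in the double mutants (adjusted p = 0.0687), and the slow troponin I gene Tnni1 at 26.4, 25.3 and 27.2 CPM against 44.4, 44.7 and 35.8 CPM (adjusted p = 0.0782). The myogenic transcription factor Myod1 was at 5.45, 7.54 and 6.38 CPM against 15.5, 11 and 7.94 CPM (adjusted p = 0.249). The summed level of the 14 was 661 to 835 TPM in WT and 928 to 1165 TPM in the double mutants, without overlap. Tnnc1 lay higher in the double mutants as well, and its relation to these markers was not tested. In the contractile and TGF-beta target list, Ccn2 was called, 5 of 24 lay higher at an unadjusted p under 0.05 and none lower, and the median was 0.18. The 5 became 2 without double mutant replicate 2, 3 without WT replicate 1, WT replicate 2 or double mutant replicate 1, 10 without WT replicate 3 and 8 without double mutant replicate 3. Ccn1, a relative of Ccn2, had a log2 change of 0.42 (adjusted p = 0.153).

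Lists of matrix genes lay in different directions. In the list of fibroblast matrix genes 12 of 28 lay lower and 2 higher at an unadjusted p under 0.05, with a median log2 change of -0.21 and no call. The small proteoglycan genes Dcn and Lum had log2 changes of -0.94 (adjusted p = 0.0785) and -0.87 (adjusted p = 0.144), and Postn, a matrix protein of collagen-rich tissue, was at 1734, 1393 and 1168 CPM in WT and 974, 908 and 813 CPM in the double mutants (adjusted p = 0.101). The 2 higher members were Thbs1 (log2 0.41, adjusted p = 0.177), which is also the most abundant, and Fn1 (log2 0.24, adjusted p = 0.347), so the list did not lie in 1 direction. Without WT replicate 1, 6 members lay lower and the median was -0.13, and 8 did so without WT replicate 2, double mutant replicate 1 or double mutant replicate 2. In the list of matrix proteases and inhibitors Ctsk was the only call, and the summed level of the 26 was 2722 to 2876 TPM in WT and 2854 to 2953 TPM in the double mutants. The basement membrane list had 5 members higher and 2 lower at an unadjusted p under 0.05, and a median of 0.03, with Nid1 the most abundant (log2 0.23, adjusted p = 0.409). Its summed level was 813 to 867 TPM in WT and 915 to 979 TPM in the double mutants, without overlap. Without double mutant replicate 1, 2 members lay higher and none lower, and without WT replicate 3 the median was -0.02.

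For cholesterol and fatty acid synthesis, 12 of 29 genes lay lower at an unadjusted p under 0.05 and none higher, and the median was -0.28. Idi1, an isomerase of the isoprenoid pathway, was at 397, 383 and 409 CPM in WT and 266, 313 and 276 CPM in the double mutants (adjusted p = 0.0973), and Ebp had a log2 change of -0.50 (adjusted p = 0.122). Without WT replicate 3 the median was -0.16 and 6 genes passed the unadjusted threshold, and 6 and 8 did so without double mutant replicates 1 and 2. The 25 members of the lysosome list, which also holds sulfatase-modifying factor genes, had a median of -0.19. Only Sumf2, 1 of those factor genes, was under 0.05 unadjusted (log2 -0.88, adjusted p = 0.0787). The mitosis list had 5 of 22 lower at an unadjusted p under 0.05 and a median of -0.17, with 1 lower without WT replicate 1, 2 without WT replicate 2, 3 without double mutant replicate 1, 7 without double mutant replicate 2 and a median of -0.09 without double mutant replicate 3. Mki67, the proliferation marker, was at 838, 801 and 707 CPM in WT and 507, 642 and 199 CPM in the double mutants, so that replicate 3 was far below the others (adjusted p = 0.415), while the DNA replication genes had a median of -0.06.

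Other lists lay close to the background. The 77 cytosolic ribosomal protein genes had a median of 0.01 with none at an unadjusted p under 0.05, and the 82 nuclear oxidative phosphorylation genes a median of -0.02 with none. Chromatin genes near CHD2 in function showed the same: Chd2 was the only called member of the 10 CHD remodellers, and Chd1, its closest relative, was at 107, 96.5 and 107 CPM in WT and 110, 128 and 101 CPM in the double mutants (log2 0.13, adjusted p = 0.781). Chd9 had a log2 change of -0.28 (adjusted p = 0.337), and Chd5, at about 1 CPM in WT, one of 0.90 (adjusted p = 0.399). The 31 genes of H3.3 deposition and Pol2 elongation had a median of 0.04, the 23 genes of the other remodeller families 0.02, and the 14 genes of nonsense-mediated decay 0.04. Hox and positional transcription factor genes, which mark the origin of fibroblasts, had medians of 0.05 and 0.00 and no call. Imprinted genes had a median of -0.01 and no call.

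The other pathway lists had medians between -0.14 and 0.08. At an unadjusted p under 0.05, the inflammatory list had 3 higher and 4 lower of 17. Ptgs2 was its only call and its median was -0.01. The counts that follow use the same threshold, at which 4.16% of all rows lay higher and 5.73% lower. Lower shares above that were 31.2% for NRF2 targets, 23.5% inflammatory, 18.8% IGF axis, 14.3% ATF4 response and 9.68% Wnt. Higher shares above it were 17.6% inflammatory, 12.5% IGF axis, 8.7% glycolysis and hypoxia and 6.25% NRF2 targets. Genes of the Wnt pathway had 0 higher and 3 lower of 31 (median -0.14), the IGF axis 2 and 3 of 16 (0.01), glycolysis and hypoxia 2 and 1 of 23 (-0.03), the ATF4 amino acid response 0 and 4 of 28 (-0.11), NRF2 targets 1 and 5 of 16 (-0.12) and double-strand break repair 0 and 1 of 23 (-0.08). The most abundant members had log2 changes near 0: Igf2, the fetal growth factor, had 0.04, Gapdh 0.17, Atf4 -0.10, the chaperone genes Calr -0.11 and Hspa8 0.07, the ferritin gene Ftl1 -0.11, Lamp1 -0.04, Pcna -0.18 and H2ax -0.04. Sfrp2, a secreted Wnt antagonist, had -0.41 (adjusted p = 0.521), and Scd1, a fatty acid desaturase, -0.23 (adjusted p = 0.805). ER chaperones, heat shock genes, mitochondrial ribosomal proteins, SR splicing factors and snoRNA host genes had medians of -0.10, 0.08, 0.04, -0.02 and -0.04. Replication-dependent histones had a median of 0.19 over 16 genes, the clustered protocadherins -0.19 over 18, and the 1091 Rik and Gm genes -0.03.

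Of the other genes chosen for naming at the outset, none was called. Sumf2, a sulfatase-modifying factor homologue that follows Cct6a on the same strand, was at 24, 23.2 and 21.9 CPM in WT and 12, 10.2 and 15.8 CPM in the double mutants (log2 -0.88, adjusted p = 0.0787), without overlap. Dapk3 was at 29.7, 27.1 and 29.1 CPM in WT and 29.4, 28.4 and 26.6 CPM in the double mutants (log2 -0.03 ± 0.11, adjusted p = 0.976). Cpt1c had a log2 change of 0.19 (adjusted p = 0.759), Eef2 0.10 (adjusted p = 0.839), Cct6a 0.18 (adjusted p = 0.619), Rassf1 0.28 (adjusted p = 0.748), Tusc2 0.01 (adjusted p = 0.993), Cnot2 -0.02 (adjusted p = 0.982) and Actb 0.13 (adjusted p = 0.726).

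Gene classes by annotation gave small shifts. A tandem class held the 243 genes whose 5′ end lay under 2 kb downstream of the end of a same-strand gene with a WT FPKM of 10 or more. It had 3 higher (1.23%) and 13 lower (5.35%) at an unadjusted p under 0.05. The shares were 4.16% and 5.73% of all rows, and 4.38% and 5.81% of the 12365 genes over 10 kb away. The lower share of the tandem class was thus near that of all rows, whereas its higher share was smaller. The median of this class was -0.03, against -0.01 for the genes over 10 kb away. None of the 243 was called. Of 601 genes in the class under 5 kb, 1 was called lower and none higher, against 6 and 7 of all 14076 rows. The 1564 tested genes whose RNA was higher in the CHD2 RIP than in IgG in Neuro2a cells, a mouse neuroblastoma line, had a median of -0.02, and Chd2 was the only one called. Within 5 Mb of Chd2, 12 other genes were tested, with no call and none at an unadjusted p under 0.05. Rgma, the nearest, was at 24, 37.2 and 30.6 CPM in WT and 31.6, 18.9 and 27.8 CPM in the double mutants. By GC content of the exons, the lowest quartile had 76 genes higher and 330 lower at an unadjusted p under 0.05, and the highest had 156 higher and 98 lower, with medians of -0.06 and 0.01. The Zfp genes had 3 higher and 44 lower of 371 and a median of -0.10, which was -0.07 with 33 lower after a correction for GC content and length.

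The identity of the cultures was checked with marker lists for 15 cell types. Vim made up most of the fibroblast marker sum. Fibroblast markers summed to 4955 to 6013 TPM in WT and 5456 to 6165 TPM in the double mutants, and Vim, the mesenchymal intermediate filament gene, was at 3778 ± 352 and 4190 ± 486 CPM (SD, n = 3). Of the 13 fibroblast markers tested, 4 lay lower at an unadjusted p under 0.05 and none higher, with a median log2 change of -0.18 and none called. Dpt, which encodes the matrix protein dermatopontin, was at 17.6, 16.2 and 4.61 CPM in WT and 3.03, 1.55 and 3.53 CPM in the double mutants (log2 -2.28, adjusted p = 0.102). The 4 became 1 without WT replicate 1, WT replicate 2 or double mutant replicate 1. Granulocyte and mast cell markers were uneven within the WT group, at 50.1, 219 and 6.28 TPM, against 15.6, 27.9 and 5.45 TPM in the double mutants, and erythroid markers at 84.9, 278 and 38 TPM against 40.3, 47.6 and 21 TPM. WT replicate 2 was the highest of the 6 for both. Liver markers lay lower in every double mutant, at 35.3, 53.4 and 12.5 TPM against 61.1 to 84.1 TPM in WT, with 7 of 12 markers under 1 TPM in all 6 libraries. The chondrocyte marker sum lay higher, at 137 to 186 TPM against 72.5 to 127 TPM. Of the 11 markers only Col2a1 lay higher at an unadjusted p under 0.05 (log2 0.89, adjusted p = 0.132). It was at 31.6, 49.5 and 66.2 TPM in WT and 92.4, 94.7 and 87.7 TPM in the double mutants, a large part of the sum. The mesothelial marker sum lay higher too, at 98.2 to 107 TPM against 61 to 76.8 TPM. However, 3 of the 8 markers had log2 changes above 0, and only Krt19 lay higher at an unadjusted p under 0.05 (log2 0.99, adjusted p = 0.0659). The neuron, epithelial, endothelial, osteoblast, smooth muscle and Schwann cell lists had medians of 0.41, -0.64, -0.03, -0.36, 0.00 and -0.02. Apart from Mrc1, none of the markers of other cell types was called.

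**Figure D3:**
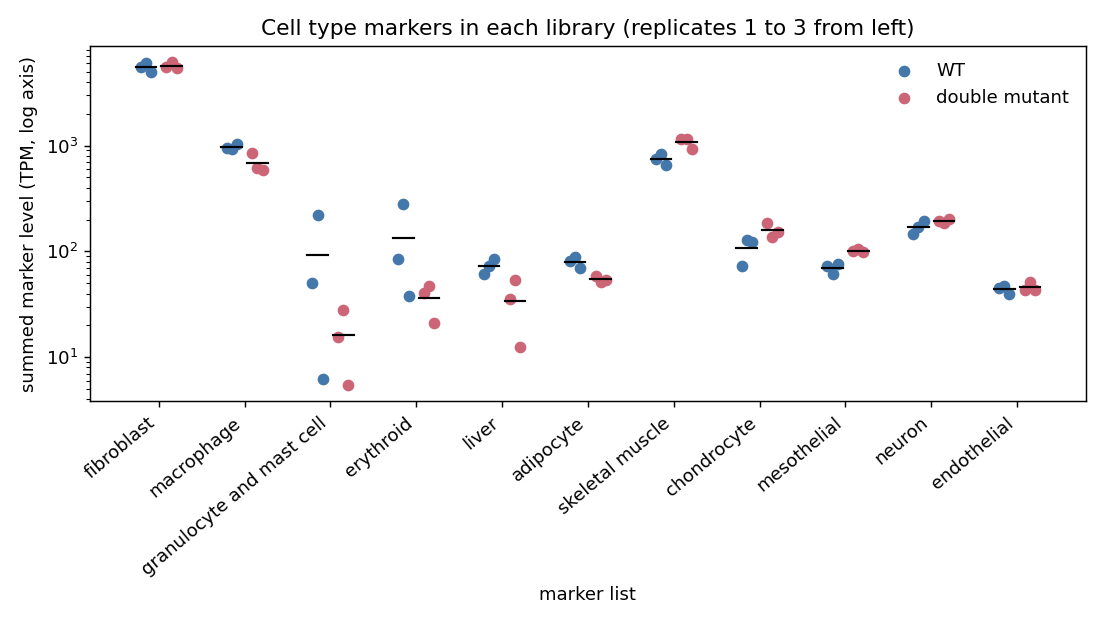
Summed level (TPM, log axis) of 11 cell type marker lists in each WT and double mutant library, with the group mean as a bar. Fibroblast marker sums overlap between the groups. The macrophage, liver and adipocyte sums are lower in all 3 double mutants, and the skeletal muscle, chondrocyte and mesothelial sums are higher. Granulocyte and erythroid sums are dominated by WT replicate 2.

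The change in the double mutant was set against that in mEFs with 1 of the alleles alone. Each set had its own WT libraries, and the sets differed beyond genotype. WT Chaserr was at 80 to 93.7 TPM in the double mutant set, 8.63 to 13.8 TPM in the Chaserr-/- set and 17.8 to 19 TPM in the Chd2m/m set. The number of genes with fractional expected counts was 2860 to 3213 in the double mutant set and 1660 to 2012 in the others. The reasons for these differences were not tested. Xist-expressing libraries were mixed in with the others in both comparison sets. In Chaserr-/- mEFs Chd2 had a log2 change of 1.45 ± 0.136 (adjusted p = 0.00568) and in Chd2m/m mEFs 0.66 ± 0.0805 (adjusted p = 0.045), against 1.88 in the double mutant. The rise in the double mutant exceeded that in Chd2m/m mEFs by 1.21 ± 0.149 on the log2 scale (adjusted p = 0.00222), and exceeded that in Chaserr-/- mEFs by 0.40 ± 0.14, which was not past the threshold (adjusted p = 0.0681).

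Against the Chd2m/m mEFs, 2 genes had changes that differed, 0.0133% of 15086 rows, and they were Chaserr and Chd2. Only 2 genes (0.0145%) were called in the Chd2m/m mEFs themselves. With 2 Chd2m/m libraries, so few differences do not show that the double mutant and Chd2m/m mEFs changed alike. Against the Chaserr-/- mEFs, 1618 genes (10.7%) had changes that differed, but this count rested on the libraries in the fit: it was 16 when only the libraries of the 2 sets entered, 23 without WT replicate 1 and 25 without double mutant replicate 1. In the Chaserr-/- mEFs, 16 genes (0.118%) were called. Across 13105 genes the log2 changes of the double mutant had a Spearman correlation of -0.02 with those of Chaserr-/- mEFs and 0.08 with those of Chd2m/m mEFs, with genes that are not independent of one another.

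The genes with the smallest p in the contrast with Chaserr-/- mEFs were Dapk3, Tmem88, Cpt1c, Hnrnph2, Zfp945 and Synpo2l. Dapk3 had a log2 change of -1.57 in Chaserr-/- mEFs and -0.03 in the double mutant, a difference of 1.52 ± 0.189 (adjusted p = 0.00501). Cpt1c was at -1.75 and 0.19, a difference of 1.92 ± 0.279 (adjusted p = 0.011), and Tmem88 at -1.78 and -0.03 (adjusted p = 0.00512). Hnrnph2 was at 0.77 and -0.19 (adjusted p = 0.011), Zfp945 at 0.86 and -0.51, and the muscle gene Synpo2l at -0.98 and 1.02 (both adjusted p = 0.0127). These 6 genes were picked by this same contrast in the fit of 17 libraries. For Tmem88, Hnrnph2, Zfp945 and Synpo2l, double mutant changes that were small or opposite to those of Chaserr-/- mEFs therefore describe the selection only. Dapk3 and Cpt1c were also listed at the outset, and the paper names both as strongly downregulated in Chaserr-/- mEFs. Their double mutant values come from libraries outside that choice.

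Of the 13 genes called in the double mutant, Ctsk and Ptgs2 had like values in the Chaserr-/- mEFs, at log2 -0.93 ± 0.164 (adjusted p = 0.0522) and 0.92 ± 0.271 (adjusted p = 0.06), with differences of -0.12 ± 0.212 and 0.15 ± 0.308 between the genotypes. Ccn2 was at -0.25 in Chaserr-/- mEFs, so that its change differed by 1.26 ± 0.199 (adjusted p = 0.0127), and Epha2 at -0.14, a difference of 1.41 ± 0.304 (adjusted p = 0.0253). Dusp5, Mrc1, Arsk, Ifi203, Baiap2l1 and Tnnc1 also differed in that contrast (adjusted p = 0.0127 to 0.0386), whereas Hbegf did not pass (adjusted p = 0.0905). The 13 genes were chosen by their change in double mutant and WT libraries that also enter this contrast. A difference from the single mutants was therefore favoured in advance. In the Chd2m/m mEFs none of the 11 genes other than Chd2 and Chaserr was called, and their log2 changes lay between -0.25 and 0.45.

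**Figure D4:**
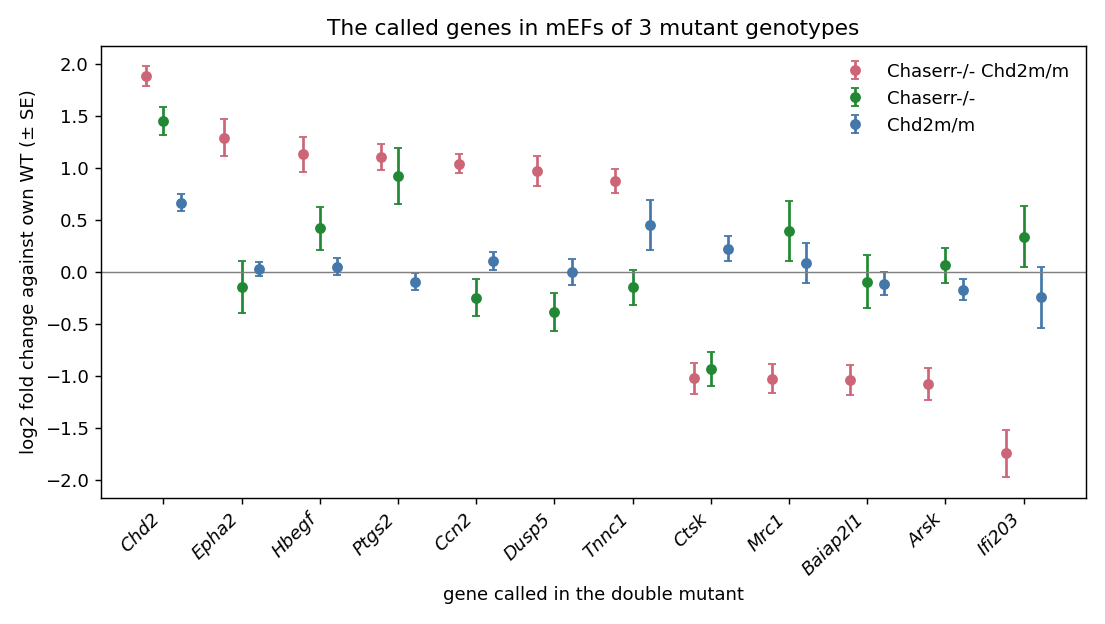
log2 fold change against the WT of the same set (± SE) for the called genes other than Chaserr in double mutant, Chaserr-/- and Chd2m/m mEFs. Chd2 is raised in all 3 genotypes, by 1.88, 1.45 and 0.66, Ctsk and Ptgs2 have like values in the double mutant and Chaserr-/- mEFs, and the other genes lie nearer to 0 in the 2 single mutants. The genes were chosen by their change in the double mutant, which favours smaller values in the single mutants.

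The interferon-stimulated genes had medians of -0.91 in the double mutant, -0.04 in Chaserr-/- and 0.00 in Chd2m/m mEFs. The ERK response genes had 0.43, -0.21 and 0.04, the p53 targets 0.28, 0.11 and 0.05, and the skeletal muscle markers 0.59, -0.65 and 0.27. The macrophage markers, in contrast, had like medians of -0.41 and -0.47 in the double mutant and Chaserr-/- mEFs and -0.08 in Chd2m/m mEFs. The difference of list medians between genotypes was not tested.

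**Figure D5:**
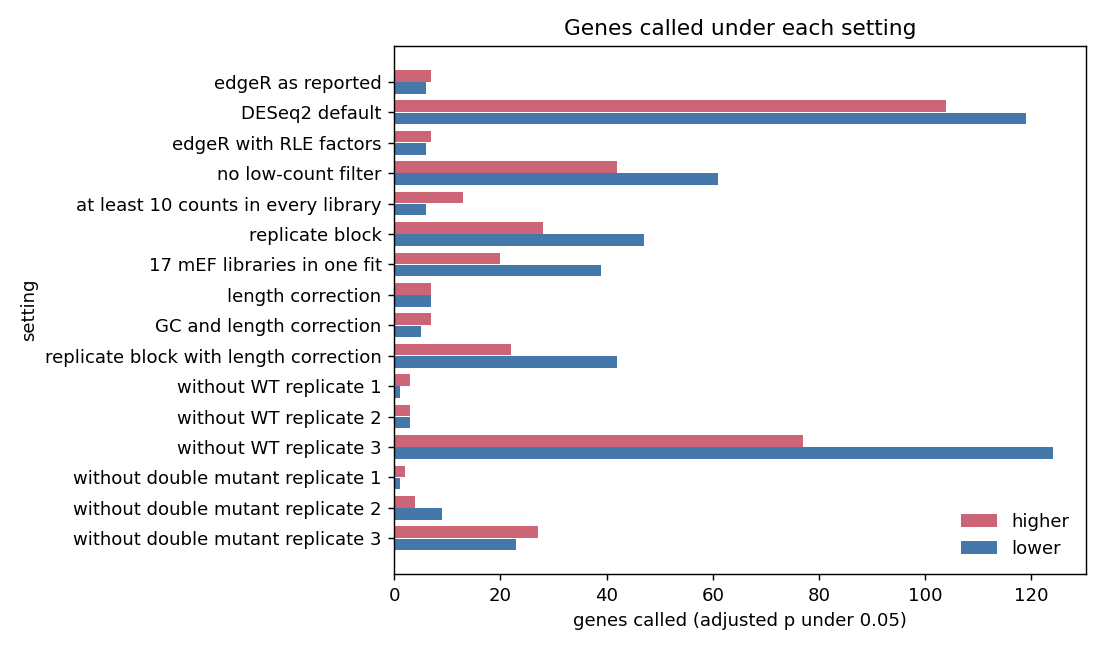
Number of genes called higher and lower in double mutant mEFs (adjusted p under 0.05) under each processing setting, including leaving out each library. The counts run from 2 higher and 1 lower, without double mutant replicate 1, to 104 higher and 119 lower with DESeq2.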

How the data were processed

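The authors made the libraries with the Lexogen SENSE mRNA kit, which keeps strand, sequenced them on a NextSeq, and quantified them with RSEM against RefSeq genes in which the last exon of Chaserr was edited. The submitters' processing notes name RSEM, Bowtie2 and the build mm9, and the RSEM version is not given in the sources used here. The deposited files hold, per gene, expected counts, TPM and FPKM values computed by the authors with RSEM. Expected counts were rounded and tested with edgeR 4.0.16 (R 4.3.3; filterByExpr, TMM, glmQLFit, glmQLFTest) on the 6 libraries, with Benjamini-Hochberg adjustment over the 14076 rows tested and calls at 0.05; DESeq2 1.42.0 was an alternative. Differences between genotypes were contrasts in 1 fit of 17 mEF libraries, and the CHD2 RIP class came from the CHD2 minus IgG contrast in a fit of 6 RIP, IgG and input libraries. TPM served for marker sums, FPKM for the 10 FPKM cut of upstream genes. The tests were checked on simulated data: of 200 genes changed 2-fold (log2 1) among 14076 in the double mutant design, 76% were recovered with 3 false calls. At log2 1.5, 92.5% were recovered with 13 false calls. In the contrasts with Chaserr-/- and Chd2m/m mEFs, 77% and 82.5% were recovered at log2 1.5, with 8 and 9 false calls. Counts were drawn independently for each gene, so shifts shared by many genes of 1 library were not simulated.

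Genes were matched to the GENCODE annotation of mm9 by symbol, and 21359 of 24990 rows had a position. The genes named were Chd2, Chaserr, Chd1 and 10 others listed at the outset, up to 12 of the largest rises and of the largest falls among the calls, up to 4 called members of each list or its most abundant member, and up to 6 genes with the smallest p in each contrast between genotypes; other genes named were chosen after their values were seen. The members and the 52 gene lists were chosen with earlier results of these data known, and 5 more lists were added after seeing the values. Results for some genes are not reported here.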

Additional observations from a re-analysis of the deposited data

Results flagged for a closer look

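These changes differed between the double mutant and the single mutant mEFs by the interaction test (differences in log2 change, double mutant minus the other genotype). Against Chd2m/m mEFs, Chaserr differed by -9.02 and Chd2 by 1.21. Against Chaserr-/- mEFs, Dapk3 differed by 1.52, Tmem88 by 1.73, Cpt1c by 1.92, Hnrnph2 by -0.98, Zfp945 by -1.40 and Synpo2l by 1.98. Among the genes called in the double mutant, Epha2 differed by 1.41, Dusp5 by 1.33, Ccn2 by 1.26, Tnnc1 by 1.00, Baiap2l1 by -0.97, Arsk by -1.17, Mrc1 by -1.45 and Ifi203 by -2.11 against Chaserr-/- mEFs. The genes called in the double mutant were chosen from libraries that also enter this contrast, which favoured a difference in advance. Genotype and set of libraries coincide here and cannot be told apart in these differences. The counts of genes behind the contrast with Chaserr-/- mEFs fell from 1618 to 16 when only the libraries of the 2 sets entered the fit. Which of the genes above are among the 16 is not given here. With 3 libraries a group, single libraries were not tested for standing apart.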

How the results depend on the processing

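Chd2 and Chaserr kept their call and direction in every fit in which they were tested, with log2 changes of 1.82 to 1.92 and -9.81 to -8.85, both over the fits without each library in turn. Against 7 genes called higher and 6 lower, DESeq2 called 104 and 119, edgeR with no low-count filter 42 and 61, and the 17 library fit 20 and 39. At least 10 counts in every library gave 13 higher and left Chaserr untested. Leaving out each library gave 2 to 77 higher and 1 to 124 lower. The lowest counts came without double mutant replicate 1, with 3 of the 13 calls kept, and the highest without WT replicate 3. Relative log expression factors and the length correction kept all 13 calls, and the GC and length correction kept 10. The titles number the replicates, but same-numbered libraries correlated at -0.06, -0.09 and 0.21 in their deviations from the group means, so the numbers were not taken to pair them; a replicate block gave 28 higher and 47 lower, and the block with the length correction 22 and 42. Of the 52 lists, 6 had a called member, against 30 with DESeq2, 20 with no filter, 16 with the replicate block, 15 with the block and length correction, 12 with 17 libraries, and 2 to 25 without each library. The number of genes whose change differs from that of Chaserr-/- mEFs was 1618, against 2598 with DESeq2, 16 with only the 2 sets of the contrast and 23 to 1691 without each library. Those differing from Chd2m/m mEFs numbered 2, against 10, 5 and, at 10 counts in every library, 1, and 2 to 7 without each library. The median of the tandem class was -0.03 and stayed between -0.02 and -0.01 with other definitions. The causes of these shifts were not tested. Genes with changes near 0 turned sign in some fits. With the replicate block, H2ax was at 0.00954 and Tmem88 at 0.00148, and with the block and length correction at 0.0102 and 0.00644. With the GC and length correction, Spp1 was at 0.00604 and Cnot2 at 0.0451. Without each library, the log2 changes ran from -0.19 to 0.32 for H2ax, -0.24 to 0.0241 for Ftl1, -0.11 to 0.0337 for Lamp1, -0.12 to 0.0518 for H3f3a, -0.0147 to 0.12 for Smg1, -0.0211 to 0.13 for Meis2, -0.10 to 0.0564 for Rpl23a, -0.11 to 0.0112 for Srrm2, -0.25 to 0.16 for Gas5, -0.0628 to 0.23 for Flt1, -0.20 to 0.16 for Spp1, -0.34 to 0.0776 for Krt18, -0.059 to 0.0198 for Dapk3, -0.0765 to 0.11 for Tusc2, -0.0694 to 0.0432 for Cnot2, -0.32 to 0.14 for Csf1r, -0.26 to 0.18 for Aif1 and -0.14 to 0.20 for Tmem88.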

Other observations

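The gene groups below were chosen after the values were seen, so their counts are descriptions only. Among targets of YAP and TEAD, the transcription factors of the Hippo pathway, 11 of 20 tested lay higher at an unadjusted p under 0.05 and none lower, with a median log2 change of 0.33, and Ccn2 was the only call. Ankrd1, a stretch-responsive gene, was at 39.9, 26.5 and 33.4 CPM in WT and 77.8, 108 and 59.3 CPM in the double mutants (log2 1.30, adjusted p = 0.065 in edgeR), and Crim1 had a log2 change of 0.73 (adjusted p = 0.0687). Of 23 sarcomere genes, 15 lay higher at an unadjusted p under 0.05, with a median of 0.52. Tnnt1, the slow skeletal troponin T, had a log2 change of 0.93 (adjusted p = 0.0687).

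Among interferon-gamma GTPases and IFI200 genes, all 20 tested had log2 changes below 0, 15 lay lower at an unadjusted p under 0.05 and the median was -1.17. Irgm2 had a log2 change of -1.32 (adjusted p = 0.0732 in edgeR) and Samd9l -1.40 (adjusted p = 0.0782). In the EGF family, 4 of 13 lay higher, with a median of 0.16: Hbegf was called, Errfi1, an inhibitor of the EGF receptor, was at 150, 148 and 119 CPM in WT and 208, 243 and 226 CPM in the double mutants (adjusted p = 0.0573), and the receptor gene Egfr had a log2 change of 0.16 (adjusted p = 0.762). Of 19 Eph receptor and ephrin genes, 3 lay higher and 2 lower with a median of -0.04, and Epha2 was the only call.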
